A study of Homo sapiens with 12 samples.

Results

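The data compare 3 libraries of OCI-AML3 cells treated with a degrader of their mutant nucleophosmin with 3 libraries of solvent-treated cells, 6 of 12 libraries in 4 groups of 3. OCI-AML3 is a human acute myeloid leukaemia line, and the cells used here carried a degron, a tag that the small molecule dTAG-13 directs to the protein degradation machinery, on NPM1c, the cytoplasmic mutant of nucleophosmin. In the group dTAG mCherry, cells were transduced with a lentivirus for the red fluorescent protein mCherry alone, received 500 nM dTAG-13 at 48 hours and were sorted for mCherry 24 hours later, so that no NPM1c was added back. The group NTC DMSO carries the degron genotype with no construct in its label, and its titles give the solvent DMSO. The 2 other groups, dTAG FL-NPM1c and dTAG C-body null, received dTAG-13 and a virus for full-length NPM1c or for the construct named C-body null, and enter below only as reference values. The libraries were chosen by their titles. All 4 groups share the degron line and the sort protocol as the labels give them, but the treatment label of NTC DMSO reads dTAG, the cell line labels carry running numbers and the meaning of NTC is not stated. The degrader, the virus with mCherry and the sort for mCherry therefore cannot be told apart in this comparison, and since no label names separate cultures, the p-values rest on a spread between libraries that may be only technical.

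Nucleophosmin is an abundant chaperone of the nucleolus, and the mutant of this leukaemia carries an added export signal that holds it in the cytoplasm. NPM1-mutant leukaemia cells are known to depend on the mutant protein to keep an immature state with active HOX genes, and they can mature towards myeloid cells when it is removed. Lists of HOX, monocyte and p53 genes are set aside here when the genes with the largest changes are picked. The gene lists, the near-silent genes and the genes ranked per kilobase were not filtered in this way, and can include genes of monocytes. The description covers the lysosome, lipid and iron handling, secreted mediators and their receptors, and proteases. It also covers chromosome and DNA repair genes, nucleotide synthesis and the machinery of gene expression.

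NPM1 itself (ENSG00000181163, chromosome 5, 171387116 to 171411137, plus strand, GRCh38) was measured at 1515, 1478 and 1296 CPM in NTC DMSO and 1309.6, 1059 and 1387 CPM in dTAG mCherry, where CPM is the count scaled to the library's effective total. The groups overlapped, and the log2 fold change was -0.19 ± 0.09 (SE; edgeR adjusted p = 0.13). dTAG-13 acts on the protein, so this transcript says nothing of how much protein was lost. The 6 libraries held 30.5 M to 45.6 M gene counts. Mitochondrial genes took 6.83% to 7.46% of counts in NTC DMSO and 7.32% to 9.63% in dTAG mCherry. dTAG mCherry replicate 2 and NTC DMSO replicate 3 stood apart from the other libraries of their groups and deviated together, with a correlation of 0.40 across genes.

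Of 24064 genes tested, 3096 were higher in dTAG mCherry (12.9%) and 2333 were lower (9.69%) at an edgeR adjusted p under 0.05. With the 6 libraries fitted alone, 2235 of 22789 genes were higher (9.81%) and 1167 lower (5.12%), and without the 2 libraries that stood apart 3031 were higher and 2391 lower. The lower count was 1534 without dTAG mCherry replicate 1. Increases were large and decreases small: 1162 genes rose by at least 2-fold and 139 fell by as much, 385 against 12 changed by at least 4-fold, and 47 rose at least 16-fold while 0 fell so far. The median log2 fold change was 0.78 among genes called higher, -0.43 among those called lower and -0.0016 over all genes tested. The genes that rose were mostly low in control cells, with a median of 3.23 CPM in NTC DMSO, against 33.9 CPM for the genes that fell. Among the 2128 genes with a mean of at least 100 CPM, 188 rose (8.83%) and 445 fell (20.9%), and none of the latter fell by 2-fold. In bulk RNA a gene can differ because each cell holds more of its RNA or because more cells express it, and these cannot be told apart.

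**Figure D1:**
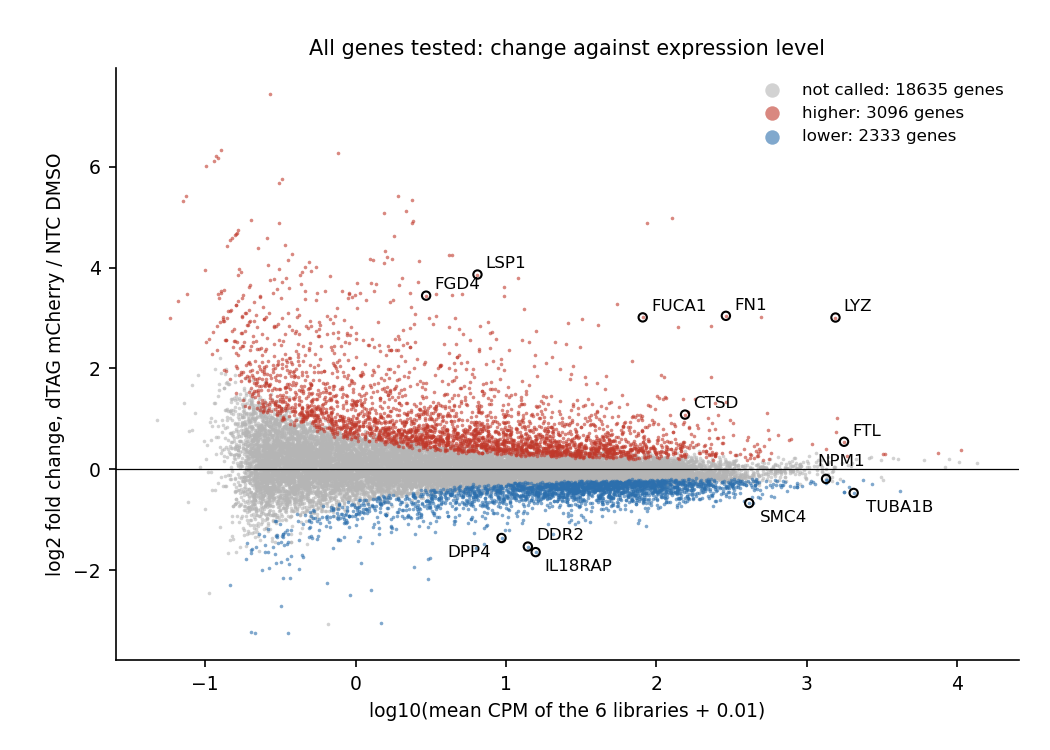
Log2 fold change of dTAG mCherry over NTC DMSO against log10 mean CPM over the 6 libraries (0.01 added) for the 24064 genes tested, with 3096 genes called higher in red, 2333 called lower in blue and the rest in grey. Large increases lie at the left and centre, while the called genes at the far right are mostly below the line and close to it.

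The first genes described are the 15 with the largest increases among protein-coding genes outside the set-aside lists that reached 5 CPM, had groups that did not overlap and were called in the fits of 12 and of 6 libraries and without each library; genes at lower levels with larger changes follow in their lists. LSP1, a leukocyte actin-binding protein (chromosome 11, 1852970 to 1892267), stood at 0.967, 0.675 and 0.846 CPM in the 3 control libraries and at 13.5, 12.8 and 9.86 CPM in the 3 dTAG mCherry libraries, a log2 fold change of 3.86 ± 0.20 (edgeR adjusted p = 1.1e-09). Groups that do not overlap were a condition for each of the 15 genes of this set. CR1, the complement receptor that binds C3b, went from 9.30, 12.2 and 9.04 to 88, 114 and 95.5 CPM (3.28 ± 0.15), and its neighbour CR1L, a related gene on the same strand of chromosome 1, went from 2 counts in all control libraries together to 67 counts, a ratio of 35.7 (95% exact interval 9.49 to 300.5, counting error only). CR1L counts are uncertain because the 2 genes share sequence. FN1, which encodes the matrix protein fibronectin, stood at 59.2, 62.4 and 66.4 CPM in NTC DMSO and 449, 540.2 and 559 CPM in dTAG mCherry. IGFBP3, a binding protein for insulin-like growth factors, rose from 9.60, 10.1 and 10.02 to 70.4, 69.4 and 77.1 CPM. Both products are secreted.

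Several of the remaining genes of this set act in signalling and the cytoskeleton. FGD4, an exchange factor for the small GTPase CDC42, rose by 3.44 ± 0.20 on the log2 scale. LRRK2, a kinase of endolysosomal membranes linked to Parkinson disease, rose from 1.76, 1.70 and 1.80 to 12.8, 11.8 and 15.3 CPM. FYB1, an adaptor of immune receptor and integrin signalling, rose by 2.75 ± 0.13, CYTIP, which binds cytohesins, by 2.71 ± 0.14, and ITGB7, an integrin beta chain, by 2.71 ± 0.20. GPAT3, an acyltransferase of triglyceride synthesis, rose by 2.77 ± 0.18, and ZFP36L1, a protein that binds AU-rich elements and destabilises mRNA, by 2.57 ± 0.15. ANXA8 and ANXA8L1, annexins whose sequences are nearly identical, rose by 3.00 and 3.03, and how reads were divided between the copies is not known. FUCA1 and MMP9 complete the set and are described with the lysosome and the proteases.

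Under the same limits on level, overlap and fits, the 15 genes with the largest decreases ran from 1.64 ± 0.11 (IL18RAP) to 1.04 ± 0.12 (C3orf80) on the log2 scale. Both chains of the interleukin 18 receptor, encoded side by side on chromosome 2, were among them. IL18R1 (102311529 to 102398775), the ligand-binding chain, fell from 29.2, 31.2 and 27.1 to 13.3, 10.2 and 12.6 CPM, and IL18RAP (102418689 to 102452565), the signalling chain, from 24.5, 25 and 21.8 to 7.60, 6.95 and 8.39 CPM (edgeR adjusted p = 1.7e-07 and 2.5e-08). That the groups do not overlap was a condition for this set as well. DDR2, a receptor tyrosine kinase for collagen, fell from 21.1, 21.4 and 19.6 to 7.07, 6.95 and 7.48 CPM. DPP4, the surface peptidase CD26, fell from 14, 13.7 and 12.5 to 5.61, 4.91 and 5.15 CPM, and GJA1, the gap junction protein connexin 43, from 130.2, 118 and 103 to 50.3, 50.7 and 59.7 CPM.

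The rest of the set joins transcription factors, trafficking genes and matrix genes. Among transcription factors, CASZ1 fell by 1.27 and LHX6 by 1.09 on the log2 scale. RAB27B, a GTPase of vesicle secretion, fell by 1.08, the metalloproteinase ADAMTS9 by 1.21, COL15A1, a collagen chain, by 1.11, and HUNK, a kinase related to AMPK, by 1.20. APOBEC3B, a cytidine deaminase that acts on single-stranded DNA, fell from 17.5, 16.2 and 18.4 to 7.60, 9.16 and 8.12 CPM. TP53INP2, which promotes autophagosome formation, fell from 98, 106 and 101 to 47.6, 49.1 and 48.5 CPM, with very little spread in either group. ANXA2R fell by 1.48.

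Beyond single genes, 38 lists with 1008 entries, 919 of them tested, were counted in each direction. The plot of the lists shows a division: among the members called, increases were more frequent in the lists of the lysosome, of mediators and of proteases, and decreases in those of chromosome structure, DNA repair, nucleotide synthesis, splicing and nuclear pores.

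**Figure D2:**
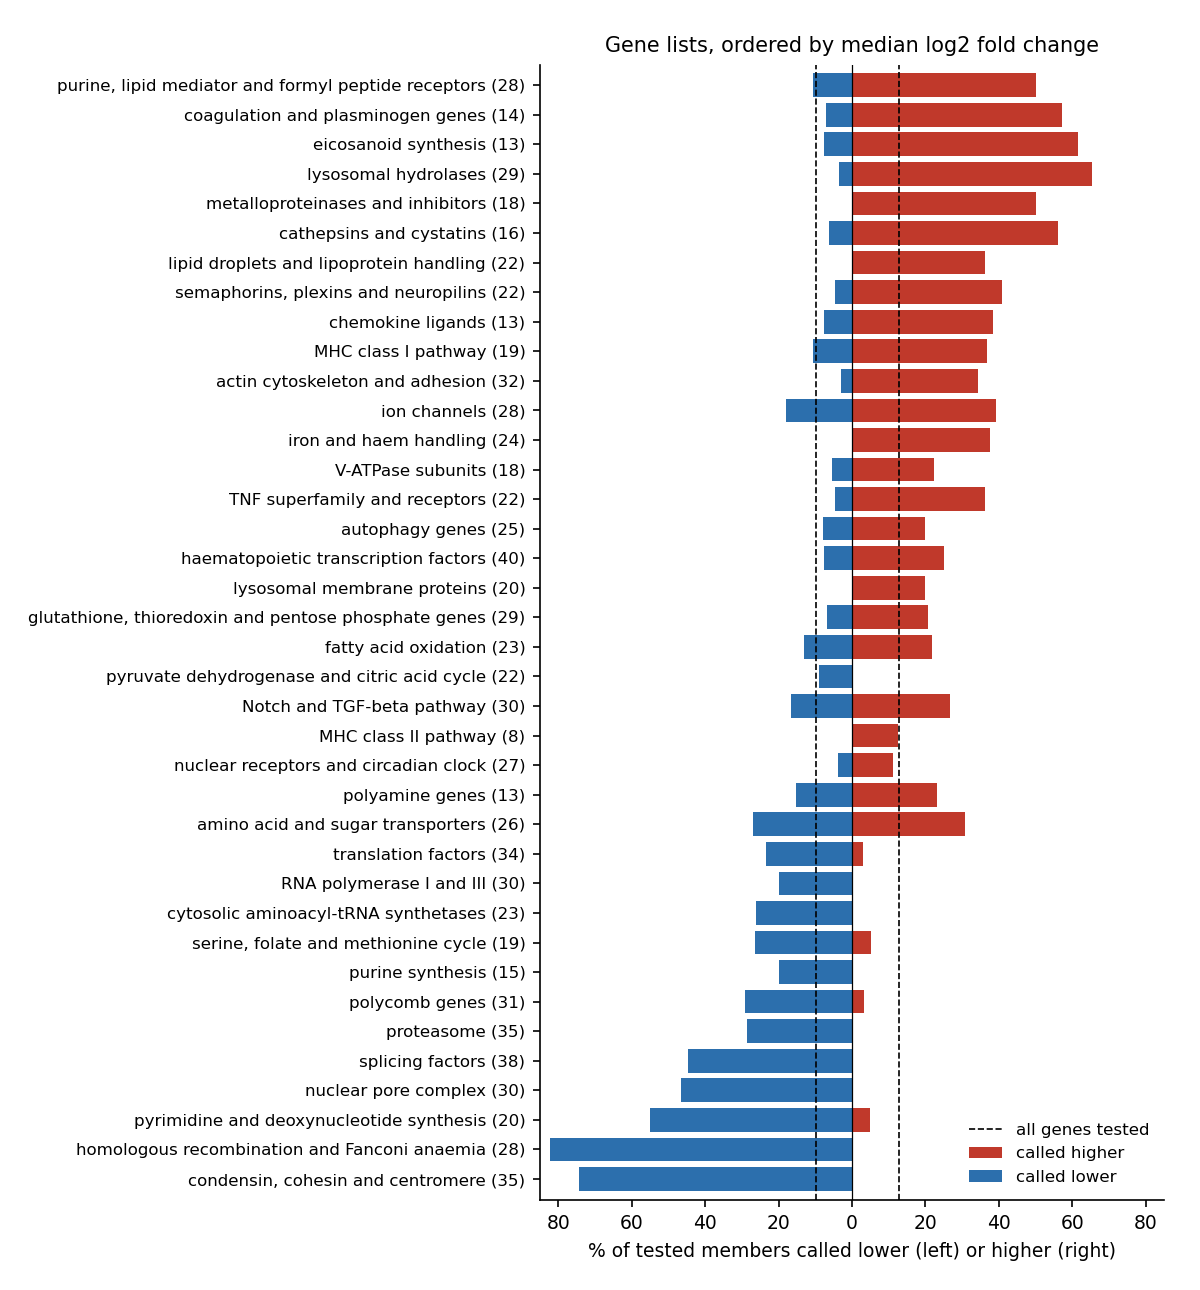
Share of the tested members of 38 gene lists (number tested in brackets) called lower, to the left, or higher, to the right, in dTAG mCherry, ordered by median log2 fold change; dashed lines give the shares over all genes tested, 12.9% higher and 9.69% lower. Lysosomal hydrolases reach 65.5% higher, and homologous recombination genes 82.1% lower.

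Most lysosomal hydrolases measured were higher. The lysosome is the acidic compartment in which hydrolases and cathepsins digest material taken up from outside or delivered by autophagy. Of 29 hydrolases tested, 19 were higher and 1 lower (ACP2, -0.29, not called with the 6 libraries or without NTC DMSO replicate 1 or 3 or dTAG mCherry replicate 1 or 3), with a median log2 fold change of 0.42 against -0.0016 over all genes, and 16 were higher with the 6 libraries alone. FUCA1, the enzyme that removes fucose from glycans (chromosome 1, 23845077 to 23868294), rose most, from 19.1, 17.9 and 16.5 to 152, 114 and 166 CPM (3.01 ± 0.17; edgeR adjusted p = 2.3e-09). GAA, the acid glucosidase that breaks down glycogen, rose from 44.6, 39.7 and 51.8 to 102, 114 and 67.4 CPM. IDUA and SGSH, both of heparan sulfate breakdown, rose by 1.13 ± 0.24 and 1.06 ± 0.15. PSAP, the precursor of the saposins, rose from 179.5 to 311 CPM on average and LIPA, the acid lipase of cholesteryl esters, from 52.2 to 88.5 CPM. Summed over the list, hydrolases took 1729 to 1767 CPM in the control libraries and 2401 to 2427 CPM in the dTAG mCherry libraries, with no overlap. PPT1 (0.01) and GUSB (0.08) did not pass the test.

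Cathepsins, the lysosomal proteases, and cystatins, their inhibitors, showed 9 increases and 1 decrease among 16 tested, with the same counts in the fit of 6 libraries. CTSD stood at 97.7, 85.2 and 115 CPM in NTC DMSO and 223, 249.9 and 158 CPM in dTAG mCherry (1.08 ± 0.15; edgeR adjusted p = 5.1e-05). CTSO (1.79 ± 0.14), CTSH (1.15 ± 0.12) and CTSK (1.13 ± 0.13) were higher, as was CTSL, from 47.7 to 85.7 CPM. The inhibitors CST3 (0.76) and CSTA (0.60) rose too. CTSV, a close relative of CTSL, went the other way, from 4.49, 4.13 and 3.78 to 1.77, 1.87 and 2.00 CPM. CTSS (-0.02), CTSZ (0.13) and CTSC (0.13), cathepsins of immune cells, were not called.

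Fewer genes were called among other parts of the organelle. Of 20 lysosomal membrane proteins 4 were higher and 0 lower, among them LAPTM5, from 446, 426 and 451 to 686, 681 and 647 CPM, while LAMP1 (-0.02) and CD63 (-0.02) were not called. Of 18 subunits of the V-ATPase, the pump that acidifies the lysosome, 4 were higher (22.2%) and 1 lower (5.56%). These counts became 2 and 0 with the 6 libraries and also without NTC DMSO replicate 2, NTC DMSO replicate 3 or dTAG mCherry replicate 1. The 2 that remained were ATP6V0D2, an isoform known from osteoclasts and macrophages, which rose from 0.124, 0.125 and 0.132 to 2.04, 2.25 and 2.77 CPM, and ATP6V0A1, which rose from 17.1, 18.9 and 19.7 to 32.9, 35.1 and 33.7 CPM. Among 25 autophagy genes 5 were higher and 2 lower, or 3 and 0 with the 6 libraries. The lower count was 0 without NTC DMSO replicate 1, 1 without NTC DMSO replicate 2, NTC DMSO replicate 3 or dTAG mCherry replicate 3, and 4 without dTAG mCherry replicate 2. The ubiquitin-like protein GABARAPL1 (1.05 ± 0.10) and the phosphoinositide-binding WIPI1 (0.90 ± 0.10) held in both fits.

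Promoters of 809 of the 1008 list entries matched RefSeq (GRCh38.p14) by symbol, as 300 bases from 250 before to 50 after the first start listed. They were searched on both strands for letters named after known elements. The CLEAR letters CACGTGAC, which the lysosomal regulator TFEB is known to bind, were in 2.53% of 27305 promoters, in 2 of 18 hydrolase promoters (11.1%) and in 2 of 9 cathepsin and cystatin promoters (22.2%). They were also in 4 of 17 promoters of lysosomal membrane proteins, 1 of them of a gene called higher, and in 3 of 12 V-ATPase promoters, 0 of them of a called gene. Lists outside the lysosome held them too: 5 of 27 polycomb promoters (18.5%) and 3 of 33 of splicing factors (9.09%), 0 of them of a called gene. Among genes called lower, the letters were in 1 of 11 pyrimidine and deoxynucleotide promoters, 1 of 14 nuclear pore promoters and 1 of 6 translation factor promoters. Genes called higher outside the lysosome held them in 1 of 6 promoters of the lipid droplet list and 1 of 5 of the glutathione list. Of the hydrolases with a promoter 11 of 18 were called higher with or without the letters, and of the cathepsins and cystatins 5 of 9. The 4 genes of the enzyme lists that hold the letters are shown, and all 4 were called higher: GAA and CTSD as above, GALNS by 0.41 (edgeR adjusted p = 0.023) and CTSA by 0.35 (adjusted p = 0.011). The last 2 calls are weak: that of GALNS ended without NTC DMSO replicate 1, NTC DMSO replicate 2 or dTAG mCherry replicate 2 (edgeR adjusted p = 0.096, 0.090 and 0.095), and that of CTSA without NTC DMSO replicate 1 or 2 (0.056 and 0.053). Each line gives 60 bases, before the start and around the match nearest to it, 5′ to 3′ on the gene's strand, with the letters and their reverse complement in capitals.
CTSD, chr11:1763941-1764000, minus strand: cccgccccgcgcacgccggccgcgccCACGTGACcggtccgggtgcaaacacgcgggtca
GAA, chr17:80101521-80101580, plus strand: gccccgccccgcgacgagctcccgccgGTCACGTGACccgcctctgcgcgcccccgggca
GALNS, chr16:88856948-88857007, minus strand: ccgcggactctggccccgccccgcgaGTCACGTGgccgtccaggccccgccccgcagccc
CTSA, chr20:45891275-45891334, plus strand: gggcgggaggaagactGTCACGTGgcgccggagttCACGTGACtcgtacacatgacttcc
The capitals nearest the start begin 47 bases before it in CTSD, 33 in GAA, 34 in GALNS and 25 in CTSA. GAA and GALNS each hold a further match upstream of the bases shown. A match here describes letters and not a bound factor.

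Of 24 iron and haem genes tested, 9 were higher and 0 lower, 8 of them with the 6 libraries and 5 without NTC DMSO replicate 2, and 1 was lower without NTC DMSO replicate 3 or dTAG mCherry replicate 3. CD163, the receptor that clears haemoglobin bound to haptoglobin, rose from 1.29, 1.48 and 1.37 to 8.43, 8.75 and 9.62 CPM. HMOX1, the haem oxygenase that releases iron from haem, rose from 4.54, 3.48 and 4.68 to 23.8, 26.2 and 22.7 CPM. Neither gene's groups overlapped, as was so for 2920 of the 3096 genes called higher and for 7719 of all 24064 genes tested. The ferritin chains FTL and FTH1, which store iron, rose from 1356, 1291 and 1659.7 to 2010.1, 2398 and 1877 CPM and from 624 to 942 CPM on average. NCOA4, which carries ferritin to the lysosome, rose from 317 to 494 CPM. The genes of haem synthesis ALAS1 (0.13) and FECH (-0.06) were not called.

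Lipid handling moved in the same direction in 8 of 22 genes, with 0 lower, 6 higher in the fit of 6 libraries and 5 higher without NTC DMSO replicate 2. Without dTAG mCherry replicate 2 there was 1 lower. CD36, a scavenger receptor and fatty acid transporter, rose from 112, 107 and 87.4 to 362, 316 and 402 CPM (1.82 ± 0.10; edgeR adjusted p = 2.0e-09), and LRP1, a lipoprotein receptor, from 6.87, 6.03 and 7.98 to 22.1, 34.3 and 18.5 CPM. Of the perilipins, which coat lipid droplets, PLIN2 rose by 0.49 and PLIN5 by 2.26, the latter from 0.174, 0.150 and 0.132 to only 0.442, 0.793 and 1.00 CPM. Fatty acid oxidation was mixed, with 5 of 23 genes higher and 3 lower, and 3 higher without dTAG mCherry replicate 1. ACSL1, which activates long-chain fatty acids, rose from 109, 109 and 95.3 to 199.6, 186 and 212 CPM and PDK4, the kinase that shuts pyruvate dehydrogenase, by 2.48 ± 0.20. CPT1A, which moves fatty acids into mitochondria, fell from 55.9, 56.6 and 57.3 to 33.6, 38.5 and 37 CPM. In the citric acid cycle and pyruvate dehydrogenase list 0 of 22 genes were higher and 2 lower (9.09%, beside 9.69% of all genes), and neither of the 2 was called in the fit of 6 libraries. Leaving out any 1 of the 6 libraries left 0 or 1 of them.

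Of 29 genes of glutathione, thioredoxin and the pentose phosphate pathway 6 were higher (20.7%, beside 12.9% of all genes) and 2 lower (6.90%, beside 9.69%). With the 6 libraries 2 were higher and 2 lower, beside 9.81% and 5.12% of all genes, and without dTAG mCherry replicate 1 there were 3 higher. GPX1, the cytosolic glutathione peroxidase, rose from 222, 199 and 224 to 386, 352 and 266 CPM, and PGD, of the pentose phosphate pathway, by 0.31 ± 0.08. GCLM, the modifier subunit of glutathione synthesis, fell from 52, 49 and 42.3 to 29.6, 30.4 and 33.4 CPM. GPX4, which removes lipid peroxides, fell by 0.45 ± 0.13, a call that ended without NTC DMSO replicate 3 or dTAG mCherry replicate 3 (edgeR adjusted p = 0.075 and 0.065). Among 13 polyamine genes SAT1, the acetyltransferase that starts polyamine breakdown, rose from 11.5, 11.2 and 9.86 to 47.5, 38.3 and 49 CPM, and SMOX, which oxidises spermine, by 0.57 ± 0.14. ODC1, which starts polyamine synthesis, fell by 0.30 ± 0.07 (edgeR adjusted p = 0.0045, and 0.072 with the 6 libraries).

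**Figure D3:**
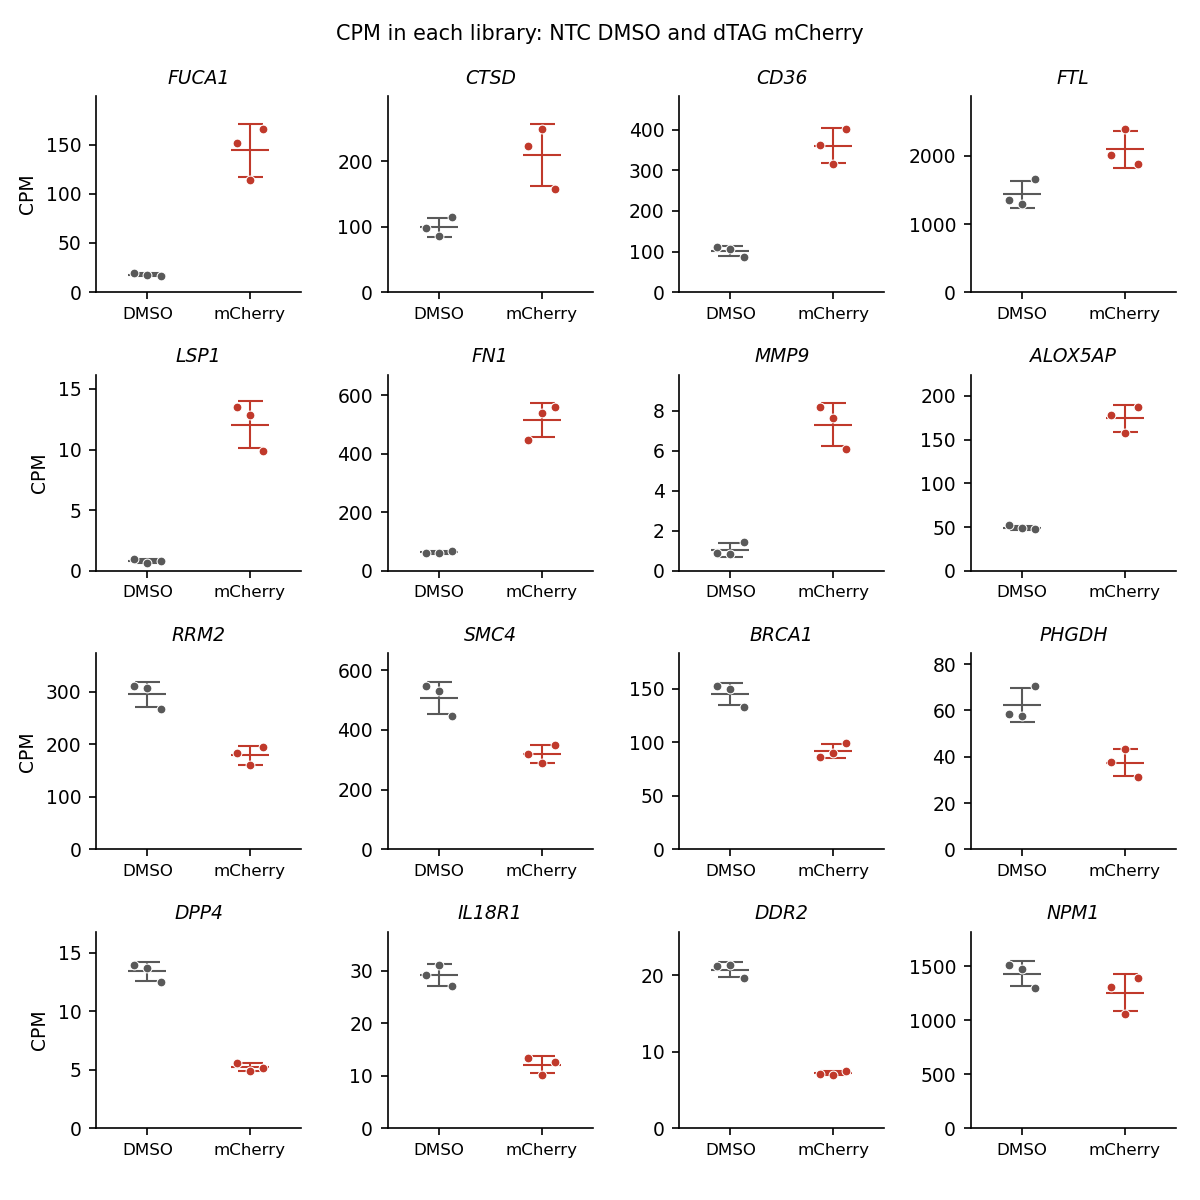
CPM of 16 genes in each library of NTC DMSO (grey) and dTAG mCherry (red); points are libraries, horizontal bars are means and error bars are SD (n = 3), and each axis starts at 0. FUCA1, CTSD, CD36, FTL, LSP1, FN1, MMP9 and ALOX5AP lie higher in every dTAG mCherry library, RRM2, SMC4, BRCA1, PHGDH, DPP4, IL18R1 and DDR2 lie lower, and NPM1 overlaps.

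Enzymes that make lipid mediators held several large increases. Leukotrienes and prostaglandins are made from arachidonic acid by myeloid cells and act through surface receptors. Of 13 eicosanoid genes tested 8 were higher and 1 lower, and 7 and 1 with the 6 libraries. ALOX5, the 5-lipoxygenase that starts leukotriene synthesis, rose from 0.174, 0.225 and 0.132 to 2.16, 2.51 and 2.34 CPM and its partner ALOX5AP from 52, 48.4 and 47.3 to 178, 157 and 187 CPM (1.82 ± 0.10; edgeR adjusted p = 1.7e-09). The next enzymes of the path, LTA4H (0.42 ± 0.09) and LTC4S (1.16 ± 0.26), rose as well. On the cyclooxygenase branch PTGS2 rose by 1.22 ± 0.14 and TBXAS1, the thromboxane synthase, from 5.01, 5.73 and 5.21 to 15.2, 15.5 and 13.4 CPM, while PTGS1 fell by 0.38 ± 0.09. PLA2G7, which inactivates platelet-activating factor, rose from 0.124, 0.100 and 0.0528 to 1.57, 0.643 and 1.20 CPM.

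Receptors for nucleotides, lipid mediators and formyl peptides gave 14 increases and 3 decreases among 28 tested, and 13 and 1 with the 6 libraries. The lower count was 0 or 1 without NTC DMSO replicate 1, dTAG mCherry replicate 1 or dTAG mCherry replicate 2. The formyl peptide receptors FPR1 and FPR2, which sense bacterial peptides, were near 0 in control cells. FPR2 had 1 count in NTC DMSO and 66 in dTAG mCherry, a ratio of 70.3 (95% exact interval 12.2 to 2816, counting error only), and FPR1 went from 0, 0.125 and 0.0264 to 0.774, 0.600 and 0.568 CPM. The annotated spans of these 2 genes overlap on opposite strands, so their counts are uncertain. GPR84, a receptor for medium-chain fatty acids, rose from 2.33, 3.35 and 2.70 to 11.5, 13 and 11.3 CPM, PTGER4, a prostaglandin E2 receptor, from 6.93 to 20.3 CPM, and P2RX7, an ATP-gated channel, from 5.25 to 10.7 CPM. LTB4R, the leukotriene B4 receptor, rose by 0.49 ± 0.08. CYSLTR2, a receptor for cysteinyl leukotrienes, fell by 1.00 ± 0.27, a call that ended without NTC DMSO replicate 1, dTAG mCherry replicate 1 or dTAG mCherry replicate 2 (edgeR adjusted p = 0.096, 0.057 and 0.056).

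Chemokines and the TNF family changed in selected members. Of 13 chemokine ligands tested 5 were higher and 1 lower, with 3 higher without NTC DMSO replicate 1. CXCL8, the neutrophil attractant interleukin 8, rose from 174 to 238 CPM, CXCL3 by 1.42 ± 0.24 and PPBP by 2.93 ± 0.48, the last from 0, 0.225 and 0.106 to 1.11, 0.772 and 0.702 CPM, while CXCL1 fell from 47.2, 44.2 and 41.9 to 31, 32.2 and 33.7 CPM. In the TNF superfamily 8 of 22 were higher and 1 lower. TNFSF13B, the B-cell survival factor BAFF, rose from 10.6, 9.95 and 8.69 to 25.2, 19.8 and 25 CPM and TNFRSF1B, a TNF receptor of leukocytes, from 44.3, 41.9 and 56.1 to 102, 117 and 82.1 CPM. TNFRSF11A, the receptor RANK, fell by 0.43 ± 0.09.

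Antigen presentation genes were counted by class. In the class I list 7 of 19 were higher (36.8%, beside 12.9% of all genes) and 2 lower (10.5%, beside 9.69%), and 5 and 0 with the 6 libraries. The 2 lower calls fell to 0 or 1 without any 1 of 5 libraries (all but dTAG mCherry replicate 2). HLA-B rose from 63, 59.5 and 65.9 to 125, 131 and 113 CPM, and HLA-C by 0.56 ± 0.11, and these loci are polymorphic and alike, which makes their counts uncertain. Presenters of other ligands rose too: MR1, which shows vitamin B metabolites, from 24.9, 24.8 and 27.5 to 51, 48.6 and 59.9 CPM and CD1D, which shows lipids, by 0.67 ± 0.08. TAP1 (0.24) and the immunoproteasome subunits PSMB8 (-0.13) and PSMB9 (-0.12) were not called. In the class II list 8 of 16 members were tested, and only CD74, the invariant chain, was higher (12.5%, beside 12.9% of all genes). It rose from 11.8, 10.6 and 13.8 to 22.9, 26 and 21.6 CPM. CIITA, the class II activator, was not called (-0.08).

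Proteases and coagulation genes held mostly increases among their calls. Of 18 matrix metalloproteinases, relatives and inhibitors 9 were higher and 0 lower, in both fits. MMP9, a gelatinase, rose from 0.868, 0.825 and 1.43 to 8.18, 7.66 and 6.11 CPM, MMP8, a collagenase of neutrophil granules, from 0.198, 0.150 and 0.0528 to 2.35, 2.38 and 2.64 CPM, and MMP14, a membrane-bound enzyme, from 174 to 243 CPM. The inhibitor TIMP1 rose by 0.43 ± 0.11. Of 14 coagulation and plasminogen genes 8 were higher and 1 lower, also in both fits. THBD, the thrombin receptor thrombomodulin, rose from 35, 33 and 31.8 to 72.6, 64.2 and 69.2 CPM, SERPINA1, the elastase inhibitor, from 10.4, 11 and 11.5 to 21.8, 21.9 and 22.3 CPM, and THBS1, thrombospondin, from 3.99, 3.50 and 4.15 to 13.2, 10.7 and 11.4 CPM. The urokinase PLAU (0.64) and its receptor PLAUR (0.65) rose together. F3, tissue factor, which starts coagulation, fell by 0.53 ± 0.13.

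Cytoskeletal genes were mostly above 0 in log2 fold change, 28 of 32, but 11 passed as higher and 1 as lower, and with the 6 libraries 5 and 1. Without NTC DMSO replicate 1 there were 7 higher. The SRC-family kinase FGR, from 2.41, 1.95 and 2.01 to 11.1, 13 and 8.82 CPM, led the list. MSN, the moesin that links actin to the membrane, rose by 0.39 ± 0.06 and its relative EZR fell by 0.32 ± 0.07.

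Haematopoietic transcription factors gave 10 increases and 3 decreases among 40 tested (25.0% and 7.50%, beside 12.9% and 9.69% of all genes), 8 and 2 with the 6 libraries. BCL6, a repressor, rose from 5.58, 5.35 and 6.05 to 14.5, 17.3 and 13.9 CPM (1.44 ± 0.11; edgeR adjusted p = 5.7e-08), EGR1 by 1.09 ± 0.10, CEBPB by 0.88 ± 0.12, IRF8 from 388 to 545 CPM and SPI1, the myeloid factor PU.1, by 0.56 ± 0.12. GATA2, a progenitor factor, fell by 0.60 ± 0.13 and NR4A1 by 0.91 ± 0.18. RUNX1 (0.24), CEBPA (0.25) and GFI1 (-0.01) were not called. In the polycomb list, whose products silence genes through histone marks, 1 of 31 was higher and 9 lower, or 0 and 5 with the 6 libraries. CBX2, a reader of those marks, fell from 30.4, 30.8 and 39.5 to 20.1, 23.8 and 17.6 CPM, PHF19 by 0.59 ± 0.10, EZH2, the methyltransferase, from 134, 133 and 124 to 95.9, 92.1 and 106 CPM and BCOR by 0.46 ± 0.10. EED (-0.16) and BMI1 (-0.28) were not called.

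Most chromosome structure genes were lower. Condensin folds mitotic chromosomes, cohesin holds sister chromatids, and the centromere proteins build the kinetochore. Of 35 tested 26 were lower and 0 higher, with a median log2 fold change of -0.50, and 24 were lower with the 6 libraries. SMC4, a condensin ATPase, fell from 547, 529.7 and 447 to 319, 289 and 349.7 CPM (0.67 ± 0.10 on the log2 scale; edgeR adjusted p = 7.2e-05). The other condensin subunits NCAPH (-0.62), NCAPG (-0.59), NCAPD2 (-0.54) and SMC2 (-0.54) fell by similar amounts. Of cohesin, SMC3 (-0.48) and SMC1A (-0.42) were lower, while PDS5B (-0.03), STAG2 (-0.19) and WAPL (-0.15) were not called. CENPA, the histone that marks centromeres, fell from 29.9 to 21.2 CPM and CENPF from 276 to 199.6 CPM.

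Promoters of 26 of these genes matched. The CHR letters TTTGAA, an element known from cell-cycle genes, were in 12 of them (46.2%) against 15.4% of all promoters. CCAAT was in 15 (57.7%) against 35.7%, and the E2F letters TTCGCG were in 3 (11.5%) against 6.15%. Of the 26 genes, 20 were called lower, and these held the CHR letters in 10, CCAAT in 10 and the E2F letters in 3. CCAAT was thus in 50% of the promoters of genes called lower, below its 57.7% in the whole list. The following 3 condensin genes are shown because they fell and hold the CHR letters before the start, and 60 bases around the match are given with the letters or their reverse complement in capitals.
SMC4, chr3:160399548-160399607, plus strand: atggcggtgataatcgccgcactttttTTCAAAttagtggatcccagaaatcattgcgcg
NCAPG, chr4:17810917-17810976, plus strand: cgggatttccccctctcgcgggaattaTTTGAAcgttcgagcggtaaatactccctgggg
NCAPD2, chr12:6493930-6493989, plus strand: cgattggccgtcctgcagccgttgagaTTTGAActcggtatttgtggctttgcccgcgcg
The capitals begin 75, 35 and 145 bases before the start. Of the other letters searched, GAGGAAGT (ETS), TTGCGCAA (CEBP) and TGACNNNGC (ARE) were in 2.54%, 0.128% and 13.6% of all promoters and in 0, 0 and 6 of these 26.

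DNA repair by homologous recombination and the Fanconi anaemia pathway, which mends crosslinks, showed 23 decreases and 0 increases among 28 genes, with a median of -0.46. The fit of 6 libraries kept 17 lower. BRCA1 fell from 153, 149.8 and 133 to 86.6, 90.3 and 99.4 CPM (0.66 ± 0.09; edgeR adjusted p = 6.4e-05). Its groups did not overlap, as was so for 2184 of the 2333 genes called lower. The helicase BLM fell from 93.2 to 61.7 CPM, FANCG by 0.68 ± 0.08 and FANCI by 0.57 ± 0.08. BRCA2 (-0.34) and PALB2 (-0.22) were not called. The promoters of this list held the CHR letters in 3 of 25 (12.0%) and CCAAT in 11 (44.0%). Of these promoters 20 were of genes called lower, with the CHR letters in 3 and CCAAT in 8.

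**Figure D4:**
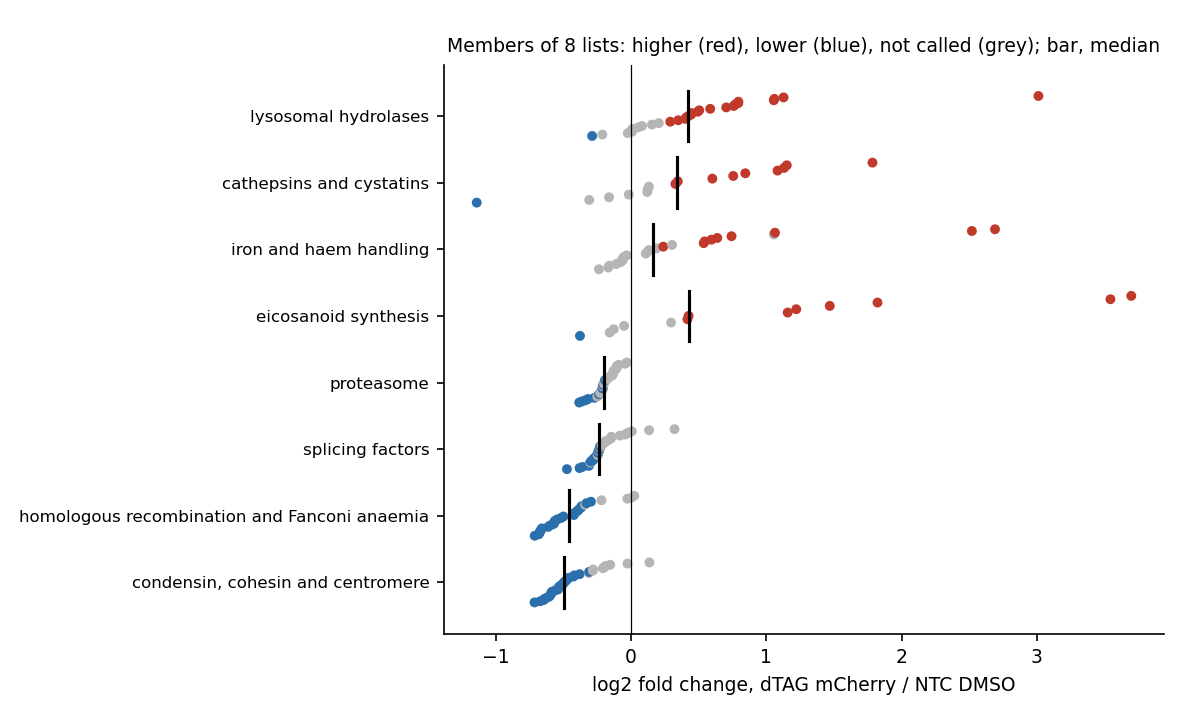
Log2 fold change of every tested member of 8 lists, red where called higher, blue where called lower and grey where not called, with the list median as a black bar. The median is 0.42 for lysosomal hydrolases and -0.50 for condensin, cohesin and centromere genes, and the proteasome members all lie left of 0.

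Genes of nucleotide synthesis were lower in part. In the pyrimidine and deoxynucleotide list 11 of 20 were lower and 1 higher, 7 and 1 with the 6 libraries. RRM2, a subunit of ribonucleotide reductase, fell from 311, 307 and 267 to 183, 159.7 and 194 CPM and RRM1 from 297, 288 and 249 to 201, 167 and 206 CPM, while thymidylate synthase, TYMS, fell by 0.44 ± 0.07 and thymidine kinase, TK1, from 138, 119.9 and 156 to 96.6, 107 and 71.8 CPM. The single increase was SAMHD1, an enzyme that degrades deoxynucleotides, from 147, 149 and 139 to 291, 297 and 297 CPM (1.03 ± 0.07; edgeR adjusted p = 1.3e-08). Purine synthesis had 3 of 15 lower, 1 of them with the 6 libraries, 1 without NTC DMSO replicate 2 and 5 without NTC DMSO replicate 3 or dTAG mCherry replicate 2, and PPAT, its first committed enzyme, fell from 86, 87.5 and 71.9 to 58.8, 52.8 and 61 CPM. All 15 log2 fold changes were negative. Of 19 genes of the serine, folate and methionine cycle 5 were lower and 1 higher, and 3 were lower without NTC DMSO replicate 1, NTC DMSO replicate 2 or dTAG mCherry replicate 1. PHGDH, which starts serine synthesis, fell from 58.3, 57.5 and 70.6 to 37.9, 43.1 and 31.3 CPM and MTHFD1 by 0.41 ± 0.07. TYMP, the thymidine phosphorylase placed in that list, rose from 7.19, 6.43 and 7.69 to 36.5, 37.6 and 25.3 CPM.

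Decreases in the machinery of gene expression were small and depended more on single libraries. For splicing factors 17 of 38 were lower and 0 higher, with a median of -0.23, but 3 were lower with the 6 libraries, and 7, 8 and 11 without dTAG mCherry replicate 1, NTC DMSO replicate 2 and NTC DMSO replicate 1. Without dTAG mCherry replicate 2 there were 2 higher. The 3 that held were SNRPA1, from 114, 113 and 99.9 to 83.5, 70.3 and 81.8 CPM, SNRPB (0.38 ± 0.10 lower) and HNRNPA2B1 (0.36 ± 0.07 lower). Nuclear pore genes were lower in 14 of 30 and higher in 0, with 7 lower in the fit of 6 libraries and 7 to 9 without NTC DMSO replicate 2, NTC DMSO replicate 1 or dTAG mCherry replicate 1. NUP85 (0.43 ± 0.07), NUP133 and NUP188 fell and RANBP2 (-0.06) and POM121 (0.01) were not called. All 35 proteasome genes had negative log2 fold changes, with a median of -0.20, but 10 passed. This is 28.6%, beside 9.69% of all genes and 20.9% of genes with a mean of at least 100 CPM. The count was 3 with the 6 libraries and 3 to 6 without any 1 of 4 libraries (NTC DMSO replicates 1 and 2, dTAG mCherry replicates 1 and 3). PSMD2, a base subunit, fell from 412, 443 and 448 to 336, 369.6 and 340.4 CPM. For splicing factors and nuclear pore genes the shares lower were 44.7% and 46.7%, beside the same 9.69% and 20.9%.

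Translation and RNA polymerases I and III held fewer calls. Of 34 translation factors 8 were lower and 1 higher, and with the 6 libraries 0 and 1. The lower count was 2 without dTAG mCherry replicate 1 and 4 without NTC DMSO replicate 1 or 2, and the higher count was 5 without dTAG mCherry replicate 2. The increase with all libraries was EIF4A2, from 421, 445 and 371 to 559, 473 and 595 CPM, and its paralog EIF4A1 fell by 0.21 ± 0.06 (edgeR adjusted p = 0.018, and 0.17 with the 6 libraries; the call ended without NTC DMSO replicate 1, NTC DMSO replicate 2 or dTAG mCherry replicate 1). Of 23 cytosolic aminoacyl-tRNA synthetases and partners 6 were lower and 0 higher, 4 with the 6 libraries: AARS1, from 209, 223 and 235 to 152, 176 and 154 CPM, and YARS1, MARS1 and TARS1 by 0.43, 0.41 and 0.38. Polymerase I and III genes were lower in 6 of 30, 2 with the 6 libraries, 2 without dTAG mCherry replicate 1 and 10 without dTAG mCherry replicate 2, with POLR1F, a subunit of polymerase I, from 191, 174 and 143 to 124, 104 and 131 CPM. Of translation factors 23.5% were lower and of the synthetase list 26.1%. These shares stand beside 9.69% of all genes and 20.9% of genes with a mean of at least 100 CPM. In the fit of 6 libraries 0 of 34 translation factors were lower, beside 5.12% of all genes.

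Transporters of amino acids and sugars moved both ways. Of 26 tested 8 were higher, all 8 also with the 6 libraries, and 7 lower, 3 with the 6 libraries and 4 without NTC DMSO replicate 2. SLC43A2, a carrier of large neutral amino acids, rose from 20.3, 17.1 and 23.2 to 71.5, 85.3 and 59.8 CPM, SLC7A7 by 1.32 ± 0.16, the glucose transporter SLC2A3 from 11.4, 12.4 and 12.5 to 22.1, 21.1 and 25.9 CPM and SLC7A11, the cystine carrier, by 0.91 ± 0.12. The glutamine carrier SLC1A5 fell from 171 to 115 CPM, the lactate carrier SLC16A1 by 0.42 ± 0.09 and SLC38A2 by 0.40 ± 0.10, the last a call that ended without NTC DMSO replicate 2 (edgeR adjusted p = 0.062).

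Some genes were close to silent in control cells. At most 3 counts over the 3 NTC DMSO libraries and a call as higher were found for 56 genes, 8 of them with 0 counts there. Such genes pass the count filter only through groups where they are higher, and they could hardly be called lower. Their number therefore describes the choice and says nothing about a direction of change. CYP4F3, a leukotriene B4 hydroxylase, had 0 counts in NTC DMSO and 58 in dTAG mCherry, at least 20.5-fold higher when set against a floor of 3 counts over the group. SLAMF7, a surface receptor of the SLAM family, had 3 and 69 counts, a ratio of 24.5 (95% exact interval 8.04 to 122, counting error only). The antisense RNA AL354813.1 on chromosome 20 had 2 and 176 counts, a ratio of 93.7 (95% exact interval 25.5 to 779.5), and without knowledge of the strand setting its reads cannot be assigned with certainty.

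On a scale of CPM per kilobase of annotated exon, the largest increases belonged to mitochondrial genes and LYZ. LYZ, lysozyme, rose from 194.1 ± 14.2 to 1562 ± 107 CPM per kilobase (SD, n = 3). MT-CO2 rose from 9704 ± 586 to 12145 ± 2386, MT-RNR2 from 5915 ± 518 to 7738 ± 1359, MT-TL1 from 4396 ± 278 to 5791 ± 847 and MT-TY from 6523 ± 202 to 7863 ± 484. The tRNA genes MT-TL1 and MT-TY are only 75 and 66 bases long, which makes small log2 fold changes, 0.40 and 0.27, large on this scale. Whether their reads came from adjoining mitochondrial transcripts was not tested. Of these mitochondrial calls, those of MT-TL1 and MT-TY held without any 1 of the 6 libraries. MT-CO2 stood at 6612, 7050.4 and 6249.6 CPM in NTC DMSO and 8285, 6686 and 9950.4 CPM in dTAG mCherry, where replicates 1 and 3 were high and replicate 2 lay among the controls. Its call ended without any 1 of 5 libraries (edgeR adjusted p = 0.056 to 0.20), and that of MT-RNR2 without dTAG mCherry replicate 1 or 3. In the fit of 6 libraries MT-TL1 was the 1 of these 4 that passed (edgeR adjusted p = 0.035). They move with the share of mitochondrial counts given above, and the part of RNA quality or cell state was not tested. The largest decreases on this scale were in 3 entries annotated as antisense RNAs, and in HSPA8 and TUBA1B. HSPA8, a chaperone, fell from 4923, 4954 and 4405 to 3627, 3208 and 3829.8 CPM, and TUBA1B, an alpha tubulin, from 2341, 2280.1 and 2506 to 1678, 1793 and 1675 CPM. The strand setting is not known, so the antisense entries cannot be told from reads of other genes and are not read as RNAs that fell. AC093484.3 stood at 905, 945 and 1038 CPM in NTC DMSO and 742, 830 and 692 CPM in dTAG mCherry. UBB had almost the same values, 906, 945 and 1039 CPM and 743, 831 and 692 CPM. The antisense gene TUBA1B-AS1 overlaps TUBA1B (chromosome 12, 49127782 to 49131397) and fell by almost the same amount, 0.46 against 0.47.

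Markers of a myeloid leukaemia line were present, and their 10 genes summed to 1077 to 1127 CPM in NTC DMSO and 1201 to 1399.6 CPM in dTAG mCherry. CD33 stood at 55.2, 59.7 and 59.6 CPM in NTC DMSO and 74.9, 78 and 78.4 CPM in dTAG mCherry. CD33, ANPEP, FLT3 and SPI1 rose by 0.41, 0.90, 0.60 and 0.56, while PTPRC (0.09) and ELANE (-0.22) were not called. Markers of other cells were low, and their part in the results above was not tested. The 12 neutrophil markers summed to 4.76 to 5.40 CPM in NTC DMSO and 12.2 to 12.96 CPM in dTAG mCherry, but 2 of 12 were tested, MMP8 and CXCR2 (from 4.56, 5.18 and 4.57 to 9.81, 9.63 and 10.2 CPM), and LCN2, CEACAM8, OLFM4, CRISP3 and MME were at 0 in all 6 libraries. The 9 dendritic cell markers summed to 4.33 to 5.11 and 3.90 to 4.46 CPM, with CLEC10A higher (2.97 ± 0.37) and CD1A lower (-0.74 ± 0.16). Of 10 mast cell, basophil and eosinophil markers PRG2 and MS4A2 were higher, in a list summed to 0.238 to 0.347 and 0.746 to 1.18 CPM, and KIT, CPA3 and CLC were at 0. In the osteoclast list of 5, summed to 3.43 to 3.74 and 3.71 to 4.42 CPM, DCSTAMP was higher (2.75 ± 0.50), and CALCR was at 0. PRG2, MS4A2 and DCSTAMP did not pass the count filter of the 6-library fit, and the MS4A2 call ended without any 1 of 4 libraries (NTC DMSO replicates 2 and 3, dTAG mCherry replicates 2 and 3; edgeR adjusted p = 0.074 to 0.089). Erythroid (8.06 to 9.72 and 8.25 to 10.4 CPM), megakaryocyte (4.98 to 5.47 and 5.41 to 6.16), T and NK cell (5.23 to 5.80 and 4.57 to 5.25), stem and progenitor (7.50 to 8.01 and 7.42 to 9.49) lists gave 0, 1 (PPBP), 0 and 0 calls, with HBB, GP9, CD3D, CD3E, CD3G and KIT at 0. Of B and plasma cell markers (5.23 to 6.25 and 3.45 to 3.86 CPM) SDC1 fell (-0.67 ± 0.14) and MS4A1 and JCHAIN were at 0. Of epithelial and fibroblast markers (1.08 to 1.26 and 0.635 to 0.939 CPM) COL1A2 fell, from 0.719, 0.425 and 0.476 to 0.0276, 0.107 and 0.100 CPM, and EPCAM, KRT19, CDH1 and COL3A1 were at 0.

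The groups with a construct added back give a reference for the genes with the largest changes. All 3 comparisons with NTC DMSO share the same control libraries, so each group's own values are set side by side, and a difference from dTAG mCherry is tested directly. The genes were picked by their dTAG mCherry values, and that test reuses the same mCherry libraries. The choice by itself thus favours values nearer to NTC DMSO in any other group. Against dTAG mCherry, dTAG FL-NPM1c had 7.58% of all genes higher and 7.95% lower, and dTAG C-body null had 0.216% higher and 0.378% lower (edgeR adjusted p under 0.05). Of the 15 genes with the largest increases, 10 stood below their mCherry level in the FL-NPM1c group and 1, FN1, above it. With C-body null 0 of 15 differed at this threshold, and their log2 fold changes over NTC DMSO ran from 2.54 to 3.95, beside 2.57 to 3.86 for mCherry and 1.44 to 3.45 for FL-NPM1c. FGD4 had the widest gap of the 15: 4.78, 5.13 and 6.21 CPM with mCherry, 1.76, 1.73 and 1.94 CPM with FL-NPM1c and 4.92, 5.04 and 4.89 CPM with C-body null. The difference between FL-NPM1c and mCherry was -1.56 ± 0.16 on the log2 scale (edgeR adjusted p = 9.0e-06), and the 3 groups all lay above the 0.670, 0.475 and 0.317 CPM of NTC DMSO.

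Of the 15 genes with the largest decreases, 7 were higher with FL-NPM1c than with mCherry (ANXA2R, DPP4, CASZ1, HUNK, GJA1, LHX6 and TP53INP2). TP53INP2 stood at 99.5, 92.2 and 90.8 CPM with FL-NPM1c, close to the 98, 106 and 101 CPM of NTC DMSO and above the 47.6, 49.1 and 48.5 CPM of mCherry (0.96 ± 0.08, edgeR adjusted p = 9.7e-07). With C-body null it was lower still, at 26.1, 24.3 and 27.8 CPM. Both interleukin 18 receptor genes behaved otherwise: IL18R1 was lower than with mCherry in both add-back groups, with log2 differences of -0.88 and -0.86 (edgeR adjusted p = 6.8e-05 and 0.0017), and so was IL18RAP, with -1.03 and -0.99 (edgeR adjusted p = 4.1e-05 and 0.0012). With C-body null 10 of the 15 were lower than with mCherry and 0 higher.

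**Figure D5:**
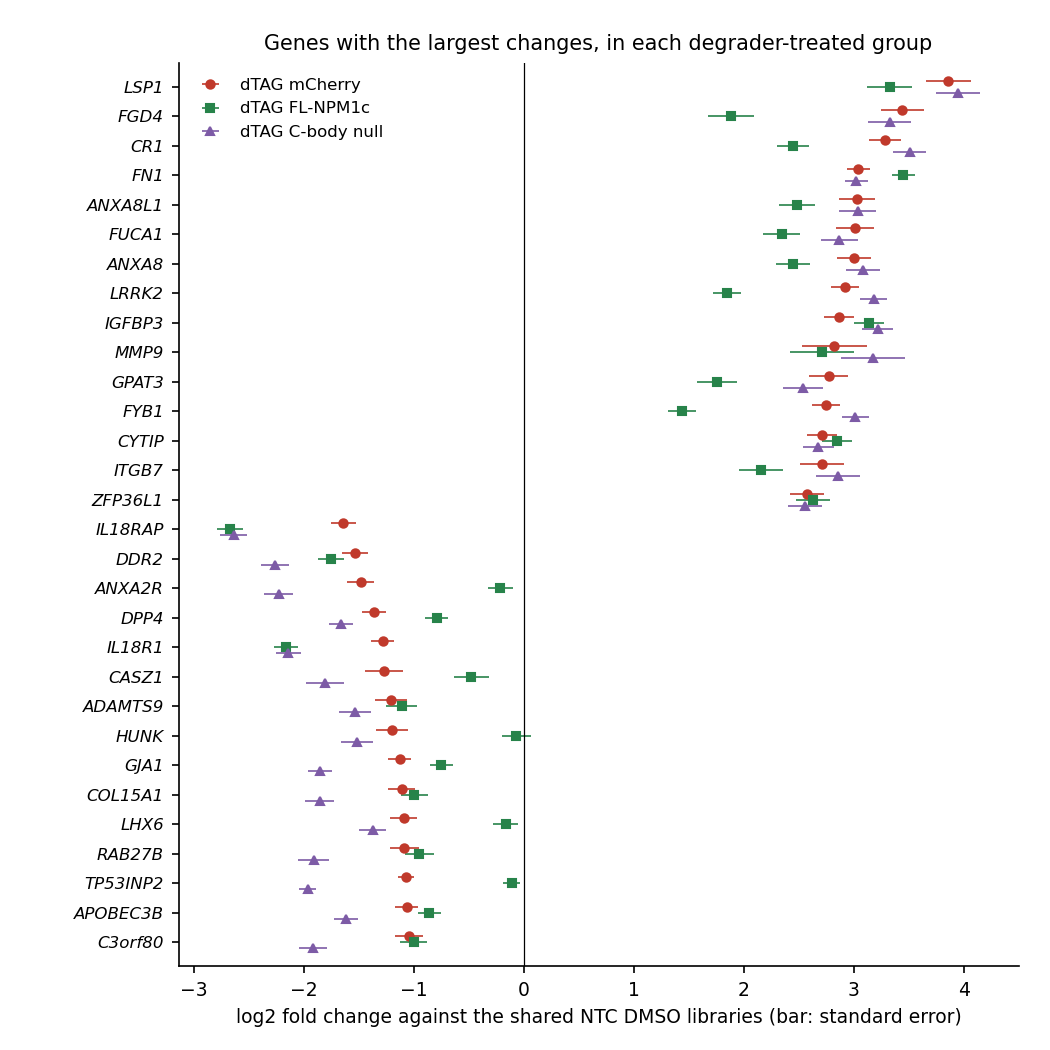
Log2 fold change over the shared NTC DMSO libraries, with its standard error, for the 15 genes with the largest increases and the 15 with the largest decreases in dTAG mCherry (red circles), beside dTAG FL-NPM1c (green squares) and dTAG C-body null (purple triangles). FGD4, FYB1 and TP53INP2 lie closer to 0 with FL-NPM1c than with mCherry, and IL18RAP and IL18R1 lie further from it in both groups with a construct.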

How the data were processed

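A stranded mRNA kit was used for all 12 libraries, as the labels' protocols state. Raw counts per gene were deposited by the authors in 1 table. STAR, featureCounts, DESeq2 and the hg38 build are listed in the submitters' processing notes. Which annotation was used, and how strand and multimapping reads were handled, is not given in the sources used here. Each column carries a library number that 1 sample's description repeats. All 12 libraries were fitted with edgeR 4.0.16 in R 4.3.3 (quasi-likelihood test, robust, TMM, filterByExpr, Benjamini-Hochberg adjustment over the 24064 genes tested), and genes with an adjusted p under 0.05 were called. CPM values use the TMM-scaled totals. The test was checked on simulated data. Named genes are first up to 15 protein-coding genes in each direction, by fold change, outside the HOX, monocyte and p53 lists. They were called in the fits of 12 and of 6 libraries and without each library, reached 5 CPM and had groups that did not overlap. Further named genes are up to 4 called members per list and members needed to say what it holds. Also named are 5 genes with at most 3 control counts, 5 in each direction by CPM per kilobase, and NPM1 and markers. Members and lists were chosen with earlier results of these data known. DESeq2 1.42.0, other scalings and filters, the 6 libraries alone, a replicate block and leaving out each library were the alternatives. Promoter sequences are from RefSeq (GRCh38.p14). Some list members are not reported here.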

Additional observations from a re-analysis of the deposited data

How the results depend on the processing

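DESeq2 gave 2770 genes higher and 2902 lower, and the other scalings and filters gave 2698 to 3260 higher and 2051 to 2848 lower. At an adjusted p under 0.01 the genes called higher numbered 2003 and the genes called lower 1193, and at an adjusted p under 0.05 with at least a 2-fold change they numbered 1162 and 139. The 6 libraries alone gave 1167 lower. Leaving out 1 library at a time gave 1534 to 2832 lower (lowest without dTAG mCherry replicate 1, highest without dTAG mCherry replicate 2) and 2495 to 3086 higher; the cause was not tested. Same-numbered replicates did not deviate together (correlations 0.0846, -0.26 and -0.31). Deviations within a group of 3 libraries depend on one another, and what the numbers stand for is not stated. Whether same-numbered libraries shared a culture or batch was not tested. The replicate block gave 2732 higher and 1840 lower. Of 2994 values of 201 named genes under the alternatives, 2805 kept direction and side of the threshold, 187 no longer passed, 2 newly passed and 0 reversed. The genes with the largest changes had to be called with the 6 libraries alone and without each library, and these settings are among the alternatives. Further genes were named because they were called members of a list. The choice of genes thus in part fixed these counts, which do not measure how stable the other genes are. Genes under a few CPM rest on few counts, where small differences were not detectable at this depth.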

Other observations

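Further lists moved in single members. Of 28 ion channel genes 11 were higher and 5 lower, with 9 and 4 in the fit of 6 libraries, and the lower count was 2, 2 and 3 without NTC DMSO replicate 1, NTC DMSO replicate 2 and dTAG mCherry replicate 1. The potassium channel KCNQ1 rose from 0.422, 0.300 and 0.423 to 1.49, 1.78 and 1.27 CPM, and KCNMB4, an accessory subunit of calcium-activated potassium channels, fell by 1.78 ± 0.15 on the log2 scale. Among 22 semaphorins, plexins and neuropilins 9 were higher and 1 lower, with 0 lower without NTC DMSO replicate 3, dTAG mCherry replicate 1 or dTAG mCherry replicate 3 and 4 without dTAG mCherry replicate 2. NRP1, a co-receptor for semaphorins and VEGF, rose from 0.372, 0.325 and 0.396 to 4.95, 5.06 and 4.44 CPM. Of 30 Notch and TGF-beta genes 8 were higher (26.7%, beside 12.9% of all genes) and 5 lower (16.7%, beside 9.69%). There were 3 lower without NTC DMSO replicate 1 or dTAG mCherry replicate 1. TGFBI, a matrix protein induced by TGF-beta, was among the higher ones. Of 27 nuclear receptors and clock genes 3 were higher (11.1%, beside 12.9% of all genes) and 1 lower (3.70%, beside 9.69%), and none of the 3 was called with the 6 libraries. The lower count was 0 without NTC DMSO replicate 3, 2 without NTC DMSO replicate 1 or 2 and 4 without dTAG mCherry replicate 2, and the higher count was 0 or 1 without NTC DMSO replicate 1 or 2 or dTAG mCherry replicate 1 or 2.

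By gene type, 1921 of 13563 protein-coding genes were higher and 1821 lower, against 565 and 263 of 4214 long noncoding genes and 141 and 44 of 1974 pseudogenes.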
